A study of Homo sapiens with 4 samples.

Results

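The genes described here are 4 factors and 6 direct targets of the YAP/TEAD transcription programme, 10 of the 60279 genes listed in the count tables, followed one by one in SUM159 cells. They were chosen by name, with earlier results of these data known, as the coactivators YAP1 and WWTR1 (which encodes TAZ), the DNA-binding factors TEAD1 and TEAD4, and the targets CCN1, CCN2, ANKRD1, AMOTL2, AXL and LATS2. SUM159 is an established triple-negative breast cancer line, grown here untreated, with palbociclib, with indisulam or with both drugs, and each condition was measured in 1 RNA-seq library. Palbociclib is an inhibitor of CDK4 and CDK6, which drive entry into the cell cycle, and indisulam leads to the degradation of the splicing factor RBM39. The labels give 10 days of treatment, with 0.5 µM palbociclib and 2 µM indisulam, whereas the text on the series gives 2 µM and 3 µM for 16 h with technical duplicates. The study describes both settings, as separate RNA-seq experiments on SUM159 cells, and the labels match the one of 10 days. The conflict with the series text was not resolved, so the dose and duration behind these libraries remain uncertain. All libraries came from 1 line kept in the same medium with serum, insulin and hydrocortisone, and no vehicle control is named for the untreated cells.

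The Hippo pathway is a kinase cascade in which MST1 and MST2 activate LATS1 and LATS2, and the LATS kinases phosphorylate YAP and TAZ, which are then held in the cytoplasm or degraded. Unphosphorylated YAP and TAZ enter the nucleus, bind TEAD factors on DNA and switch on genes for secreted matrix-associated proteins, cytoskeletal proteins and receptors. Some of the targets, among them LATS2 and AMOTL2, feed back to restrain YAP. Cell density, attachment and tension of the actin cytoskeleton are the known inputs to the pathway, and much of its control acts on the phosphorylation and location of the proteins, which RNA counts do not measure.

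TEAD factors bind DNA at the sequence GGAATG, or CATTCC when read on the other strand. The stretches of promoter that hold this word are shown as a description of the sequences, and a relation of the word to the RNA levels below was not tested. RefSeq promoter windows on build GRCh38.p14, each 300 bases long from 250 bases upstream to 50 bases downstream of a gene start, were matched by symbol for 7 of the 10 genes (10 windows), and not for CCN1, TEAD1 and TEAD4. The word was present on either strand in 4928 of the 35116 RefSeq windows (14.0%), in 2 or more copies in 1.37% and in 3 or more in 0.128%. CCN2 held 3 copies and ANKRD1 held 2, while YAP1, LATS2 and the second windows of AMOTL2 and AXL held 1 each. The first windows of AMOTL2 and AXL and both windows of WWTR1 held none. Capitals mark GGAATG or CATTCC, and every sequence is written 5′ to 3′ on the strand of its gene.
CCN2 (chr6:131951373-131951622, minus strand, all 250 bases upstream of the start): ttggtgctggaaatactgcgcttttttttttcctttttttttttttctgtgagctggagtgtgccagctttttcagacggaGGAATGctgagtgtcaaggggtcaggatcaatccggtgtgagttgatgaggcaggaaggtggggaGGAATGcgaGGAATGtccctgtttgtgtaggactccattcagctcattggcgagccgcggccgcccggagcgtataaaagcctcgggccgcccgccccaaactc
ANKRD1 (chr10:90921088-90921337, minus strand, all 250 bases upstream of the start): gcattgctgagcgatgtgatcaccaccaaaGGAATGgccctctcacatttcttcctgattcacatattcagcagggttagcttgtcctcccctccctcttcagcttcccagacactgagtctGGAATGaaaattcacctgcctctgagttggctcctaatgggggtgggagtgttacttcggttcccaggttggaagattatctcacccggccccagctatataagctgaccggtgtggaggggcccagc
YAP1 (chr11:102110250-102110325, plus strand, around its copy): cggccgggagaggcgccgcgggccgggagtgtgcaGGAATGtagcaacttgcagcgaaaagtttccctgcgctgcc
AXL, second window (chr19:41226508-41226583, plus strand, around its copy): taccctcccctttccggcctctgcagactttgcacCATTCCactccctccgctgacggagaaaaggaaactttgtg
LATS2 (chr13:21061560-21061589, minus strand, across the start): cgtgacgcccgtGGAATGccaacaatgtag
AMOTL2, second window (chr3:134374499-134374528, minus strand, around its copy): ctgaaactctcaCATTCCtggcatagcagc
In CCN2 the copies began 169, 104 and 95 bases upstream of the start, and in ANKRD1 220 and 128 bases upstream. The LATS2 copy began at base 10 after the start, whereas those of YAP1 and of the AXL and AMOTL2 windows began 162, 212 and 69 bases upstream. The second windows of AXL and AMOTL2 belong to starts inside these genes, so their copies lie within the genes. The AMOTL2 stretch also overlaps an exon of AMOTL2, and the YAP1 stretch overlaps an exon of an unnamed gene on the opposite strand. The AXL and AMOTL2 copies were in reverse orientation. A match is a description of these letters and does not show that TEAD bound there.

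The libraries held between 12555908 and 16712174 reads assigned to genes, and 3 reads, taken as the floor of detection, corresponded to 0.180 to 0.239 CPM, the unit in which a count is divided by the total of gene counts of its library. Mitochondrial transcripts took 4.90% to 7.33% of the reads. VIM, a mesenchymal intermediate filament, was at 2642 to 4598 CPM, CD44 at 706 to 883 CPM, and the receptor genes ESR1 and PGR at no more than 1.11 and 0.209 CPM, as the label of a triple-negative line implies, while ERBB2 mRNA was at 110 to 143 CPM. The haematopoietic and endothelial markers summed to 28.4 to 55.6 CPM, carried by PTPRC and PECAM1, with CD3E at 0 in all 4 libraries. The fibroblast markers COL1A1, COL3A1, DCN and LUM summed to 2196 CPM in untreated cells, 4702 CPM with palbociclib, 4058 CPM with indisulam and 3294 CPM with the combination. DCN and LUM were highest with indisulam and the combination, as ANKRD1 was, and COL3A1 was highest with palbociclib, and the part of such transcripts in the values below was not tested. In bulk RNA, a change in the share of cells that express a gene and a change in RNA per cell cannot be told apart.

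Because each condition had 1 library, no p-value could be given and no difference has a replicate check. Levels are given as CPM with exact 95% Poisson intervals, and ratios between libraries as log2 ratios of scaled counts with 95% counting intervals. These intervals describe the error of counting alone and hold no variation between libraries. They may be too narrow even for counting, because the reads carried no molecular identifiers and may repeat a molecule. A gene was called where the ratio was at least 2-fold in either direction with an interval that excludes 1, among the 14269 genes with a mean of at least 1 CPM, and all 10 genes passed this filter. For genes at 100 CPM or more, the scaled median absolute departure from additivity over all tested genes corresponded to a spread of 0.28 on the log2 scale for a single ratio, which includes any true interaction of the drugs. It was 0.26 at 20 to 100 CPM and 0.37 at 5 to 20 CPM. This spread is on the scale of 1 standard deviation, so a difference above it may still be variation between libraries. Differences smaller than the spread are given as values only. Gene positions are those of GENCODE release 44 on GRCh38.

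YAP1 encodes the coactivator at the end of the pathway (ENSG00000137693, chr11:102110447-102233424, plus strand). Its level was 129 CPM in untreated cells, 138 CPM with palbociclib, 195 CPM with indisulam and 184 CPM with the combination. The libraries thus fell into a lower pair without indisulam and a higher pair with it, and the counting intervals overlapped within each pair but not between them. The log2 ratio of indisulam to untreated was 0.59 (0.51 to 0.68), and that of the combination to palbociclib was 0.42 (0.33 to 0.51). Palbociclib against untreated gave 0.09 (-0.01 to 0.19). Genes of unnamed long noncoding RNAs overlap 10.1% of the YAP1 exon bases on the opposite strand, and as the strand setting of the counting is not given, their reads may not be told apart from those of YAP1.

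WWTR1 encodes TAZ, the paralog of YAP (ENSG00000018408, chr3:149517235-149736714, minus strand). It was at 53.2 CPM in untreated cells, 60.8 CPM with palbociclib, 53.1 CPM with indisulam and 56.2 CPM with the combination. The intervals of neighbours in this order overlapped throughout, and indisulam against untreated gave a log2 ratio of 0.00 (-0.15 to 0.14). The antisense gene WWTR1-AS1 overlaps 9.05% of the WWTR1 exon bases. The reads of YAP1 per read of WWTR1, a ratio within a library that needs no scaling, were 2.43 (2.22 to 2.66) in untreated cells, 2.27 (2.08 to 2.47) under palbociclib, 3.67 (3.41 to 3.96) under indisulam and 3.27 (3.03 to 3.54) with the combination. The balance of the coactivator mRNAs was therefore higher toward YAP1 in both libraries with indisulam. The gene pairs compared within libraries were chosen after their values were seen. Their intervals hold counting error alone, and the spread given above for a single ratio does not cover a ratio of 2 genes.

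TEAD1 encodes a DNA-binding partner of YAP and TAZ (ENSG00000187079, chr11:12674421-12944737, plus strand). Its level was 100.5 CPM in untreated cells, 126 CPM with palbociclib, 155 CPM with indisulam and 168 CPM with the combination. It was thus higher in every treated library than in untreated cells, with overlapping intervals only between indisulam and the combination. Against untreated cells, palbociclib gave a log2 ratio of 0.33 (0.22 to 0.44), indisulam one of 0.63 (0.53 to 0.72), and both drugs together 0.74 (0.64 to 0.84). TEAD4, another DNA-binding member of the family (ENSG00000197905, chr12:2959330-3040676, plus strand), had the fewest reads of the 10 genes. It was at 16.3 CPM in untreated cells, 12.8 CPM with palbociclib, 16.6 CPM with indisulam and 13.4 CPM with the combination. All neighbours in the order of TEAD4 levels overlapped, and both libraries with palbociclib were the lower ones. TEAD1 reads per TEAD4 read were 6.16 (5.31 to 7.14) in untreated cells, 9.83 (8.37 to 11.6) under palbociclib, 9.37 (8.27 to 10.6) under indisulam and 12.5 (10.8 to 14.4) with the combination. The ratio to TEAD4 was thus higher in each treated library than in untreated cells, whereas the ratio to TEAD2 was not. TEAD1 reads per TEAD2 read were 4.31 (3.79 to 4.89) in untreated cells and 3.53 (3.18 to 3.92) under palbociclib, with overlapping intervals, and higher under indisulam at 8.62 (7.65 to 9.71) and with the combination at 9.82 (8.61 to 11.2). Per TEAD3 read they were 2.50, 2.92, 2.78 and 4.21 in untreated, palbociclib, indisulam and combination cells, and only the last interval (3.84 to 4.61) lay apart from the others.

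**Figure D1:**
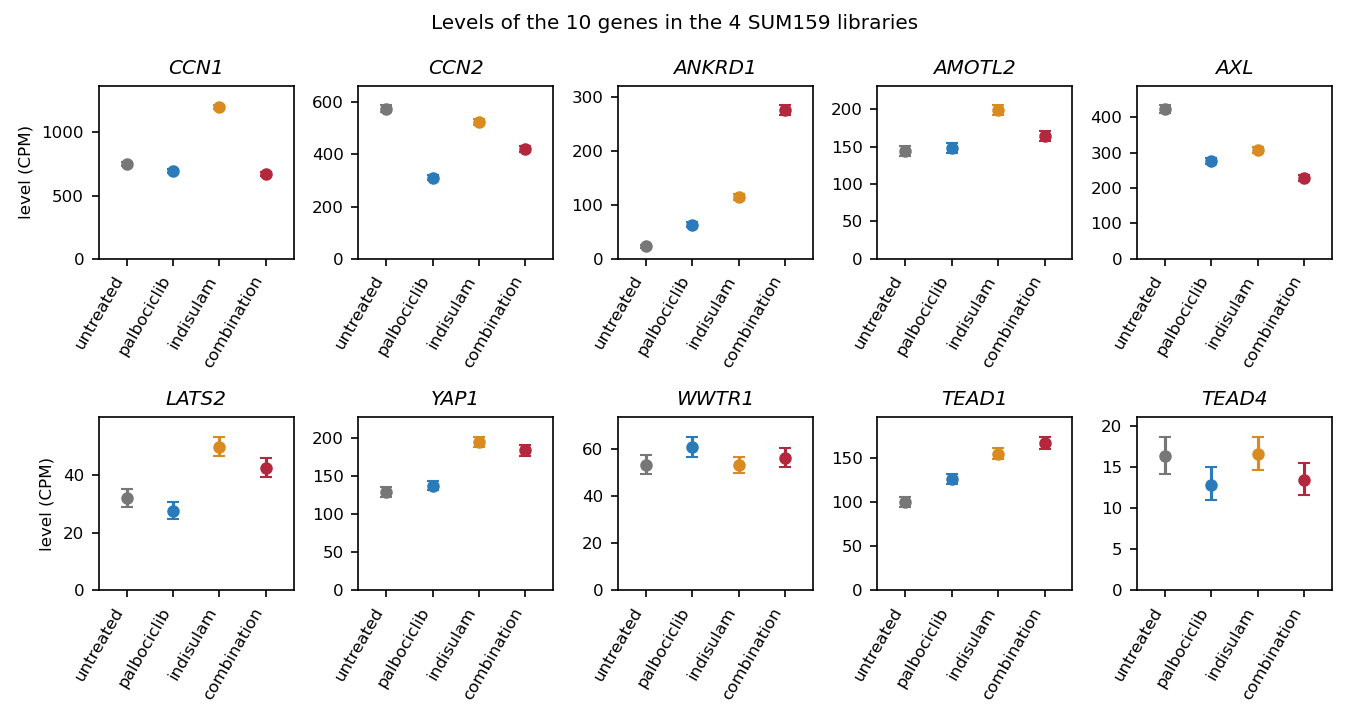
Level in CPM (vertical axis, linear from 0, own scale per panel) of each of the 10 genes in the untreated, palbociclib, indisulam and combination libraries. Each point is 1 library and the bars are exact 95% Poisson intervals; ANKRD1 increases from 23.0 to 277 CPM across the panel, AXL is highest in untreated cells, and CCN1 is highest with indisulam at 1198 CPM.

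ANKRD1 was the only one of the 10 genes that was called in any comparison at 2-fold. It encodes an ankyrin repeat protein best known from heart muscle, where it is found in the nucleus and in sarcomeres, and is widely used as a reporter of YAP activity (ENSG00000148677, chr10:90912096-90921087, minus strand). Its level was 23.0 CPM (20.4 to 25.8) in untreated cells, 63.1 CPM (58.8 to 67.6) with palbociclib, 114 CPM (109 to 120) with indisulam and 277 CPM (268 to 285) with the combination. These are 289, 801, 1910 and 3973 reads, and no interval overlapped another.

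Each drug was accompanied by more ANKRD1 RNA, both on its own and on top of the other drug. Against untreated cells, palbociclib gave a log2 ratio of 1.45 (1.26 to 1.65), indisulam one of 2.31 (2.13 to 2.49), and both drugs together 3.58 (3.41 to 3.76). The combination stood 2.13 (2.02 to 2.24) above palbociclib and 1.28 (1.20 to 1.35) above indisulam on the log2 scale. The log2 ratio of the combination minus the sum of the single-drug log2 ratios was -0.18 (-0.39 to 0.03), so the combined level was additive on the log2 scale within counting error. Among 11375 genes at a mean of at least 5 CPM, those with the nearest log2 ratios to untreated over the 3 treated libraries were GDF6, at a Euclidean distance of 0.04, ALDH1A3 at 0.32 and RND3 at 0.33. RND3 went from 17.8 CPM in untreated cells to 41.3, 93.6 and 187 CPM with palbociclib, indisulam and the combination. GDF6 was low, at 1.59 CPM in untreated cells and 19.8 CPM with the combination.

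CCN1 and CCN2 encode secreted matricellular proteins of the CCN family, formerly CYR61 and CTGF, and are the most used readouts of YAP. CCN1 (ENSG00000142871, chr1:85580761-85584589, plus strand) was at 750 CPM in untreated cells, 695 CPM with palbociclib, 1198 CPM with indisulam and 670 CPM with the combination. Only the indisulam library was high, and the intervals of palbociclib and the combination overlapped. The log2 ratio of indisulam to untreated was 0.68 (0.64 to 0.71), whereas that of the combination to palbociclib was -0.05 (-0.09 to -0.01). Compared with indisulam alone, the combination was lower by a log2 ratio of -0.84 (-0.87 to -0.80). The departure from additivity was -0.73 (-0.78 to -0.67), the lowest among the 10 genes, and 8.94% of all tested genes departed further downward.

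CCN2 (ENSG00000118523, chr6:131948176-131951372, minus strand) had another order. Its level was 575 CPM in untreated cells, 310 CPM with palbociclib, 524 CPM with indisulam and 421 CPM with the combination, and no interval overlapped another. It was lowest with palbociclib alone, at a log2 ratio to untreated of -0.89 (-0.95 to -0.83), and the combination lay between palbociclib and indisulam, at -0.45 (-0.50 to -0.40). The departure from additivity was 0.57 (0.50 to 0.65), opposite in sign to that of CCN1. The noncoding gene LINC01013 on the other strand overlaps 11.9% of the CCN2 exon bases. CCN1 reads per CCN2 read were 1.30 (1.27 to 1.35) in untreated cells, 2.24 (2.16 to 2.32) under palbociclib, 2.29 (2.23 to 2.34) under indisulam and 1.59 (1.54 to 1.64) with the combination. By the counting intervals, the ratio of these paralogs was higher in every treated library, and more so with either drug alone than with both. For the combination, however, the CCN1 log2 ratio to untreated of -0.16 was smaller than the spread of 0.28 given for genes at this level. Between CCN2 and ANKRD1, the ratio shifted toward ANKRD1. Its reads per CCN2 read were 0.0400 (0.0356 to 0.0450) in untreated cells, and palbociclib, indisulam and both drugs gave 0.203 (0.189 to 0.220), 0.218 (0.208 to 0.229) and 0.657 (0.632 to 0.684).

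AXL encodes a receptor tyrosine kinase whose ligand is GAS6 (ENSG00000167601, chr19:41219223-41261766, plus strand). It was at 422 CPM in untreated cells, 276 CPM with palbociclib, 308 CPM with indisulam and 227 CPM with the combination. AXL and CCN2 were the 2 of the 10 genes that were lower than in untreated cells in all 3 treated libraries with every counting interval excluding 0. For CCN2 with indisulam, however, the log2 ratio of -0.13 was smaller than the spread of 0.28 given for genes at this level. On the log2 scale, palbociclib differed from untreated by -0.61 (-0.67 to -0.55), indisulam by -0.46 (-0.51 to -0.40), and both drugs together by -0.89 (-0.96 to -0.83). The nearest genes by log2 ratios were MPV17, at a distance of 0.03, TMEM39B at 0.04 and CACNB3 at 0.06. Reads of the ligand GAS6 per AXL read were 0.230 (0.216 to 0.245) in untreated cells, 1.29 (1.23 to 1.35) under palbociclib, 0.697 (0.668 to 0.727) under indisulam and 1.30 (1.25 to 1.37) with the combination. The ratio of ligand to receptor was thus highest in both libraries with palbociclib.

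AMOTL2 encodes an angiomotin-like protein that binds YAP and keeps it out of the nucleus (ENSG00000114019, chr3:134355347-134375479, minus strand). Its level was 144 CPM in untreated cells, 148 CPM with palbociclib, 199 CPM with indisulam and 165 CPM with the combination. It was highest with indisulam alone, at a log2 ratio to untreated of 0.46 (0.38 to 0.55), and the untreated and palbociclib libraries overlapped. The combination against indisulam gave a log2 ratio of -0.27 (-0.35 to -0.19), smaller than the spread of 0.28 given for genes at this level.

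LATS2 encodes a kinase that phosphorylates YAP and TAZ and is itself a target of them (ENSG00000150457, chr13:20973036-21061586, minus strand). It was at 31.9 CPM in untreated cells, 27.6 CPM with palbociclib, 49.7 CPM with indisulam and 42.3 CPM with the combination. Both libraries with indisulam were above both without it, at a log2 ratio of 0.64 (0.46 to 0.81) when indisulam was compared with untreated and 0.62 (0.43 to 0.81) when the combination was compared with palbociclib. Reads of LATS2 per read of its paralog LATS1 showed no such separation of the libraries. They were 1.16 (1.01 to 1.34), 0.972 (0.839 to 1.13), 1.06 (0.960 to 1.17) and 1.11 (0.992 to 1.25) in untreated, palbociclib, indisulam and combination cells, with intervals that all overlapped.

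**Figure D2:**
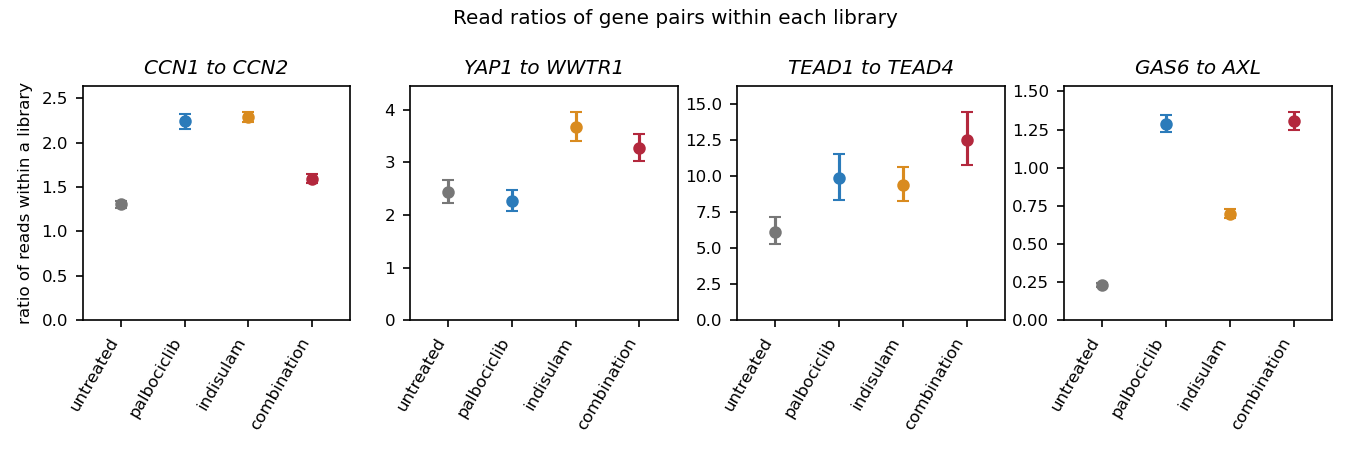
Reads of one gene per read of another within the same library (vertical axis, linear from 0), which needs no scaling between libraries, for CCN1 to CCN2, YAP1 to WWTR1, TEAD1 to TEAD4 and GAS6 to AXL. Points are single libraries and bars are 95% counting intervals; YAP1 to WWTR1 is higher in both libraries with indisulam, and GAS6 to AXL is highest in both libraries with palbociclib, at 1.29 and 1.30.

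Compared per kilobase of merged exons, the order of the genes also differed between libraries. In untreated cells, CCN2 was highest at 246 (CPM per kilobase), followed by CCN1 at 203 and AXL at 82.3. AMOTL2 at 22.3 and YAP1 at 20.5 overlapped, and ANKRD1 was next at 12.9. TEAD1 was at 9.39, and TEAD4 at 7.18, WWTR1 at 6.37 and LATS2 at 5.69 overlapped with their neighbours. With the combination, CCN1 at 181 and CCN2 at 180 overlapped, and ANKRD1 had moved from rank 6 to rank 3 at 155. Both CCN genes stayed above the factors, whose highest value on this scale was 30.9, for YAP1 with indisulam.

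In the comparison of palbociclib with untreated cells, 1 of the 10 genes was called, ANKRD1 (higher), beside 10.6% of all tested genes. At 1.5-fold the called genes were ANKRD1 (higher) and CCN2 and AXL (lower), beside 24.5% of all tested genes. The median log2 ratio of the 10 genes was -0.04, and that of all tested genes was -0.02. In the comparison of indisulam with untreated cells, ANKRD1 alone was called at 2-fold, beside 14.9% of all tested genes. At 1.5-fold the count was 5 (CCN1, ANKRD1, LATS2, YAP1 and TEAD1, all higher), beside 31.1%, and the median of the 10 genes was 0.53 against 0.06 for all tested genes. The calls of LATS2, YAP1 and TEAD1 at 1.5-fold were lost under each of the 3 other scalings, which left 2 of 10 (CCN1 and ANKRD1). In the comparison of the combination with untreated cells, ANKRD1 was again the 1 gene called, beside 23.4% of all tested genes. At 1.5-fold TEAD1 (higher) and AXL (lower) were added, beside 42.2%, and the median was 0.14 against 0.05. These 3 comparisons share the untreated library, so their values are set side by side and are not independent. The counts of called members at 2-fold were below or near the background in each.

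**Figure D3:**
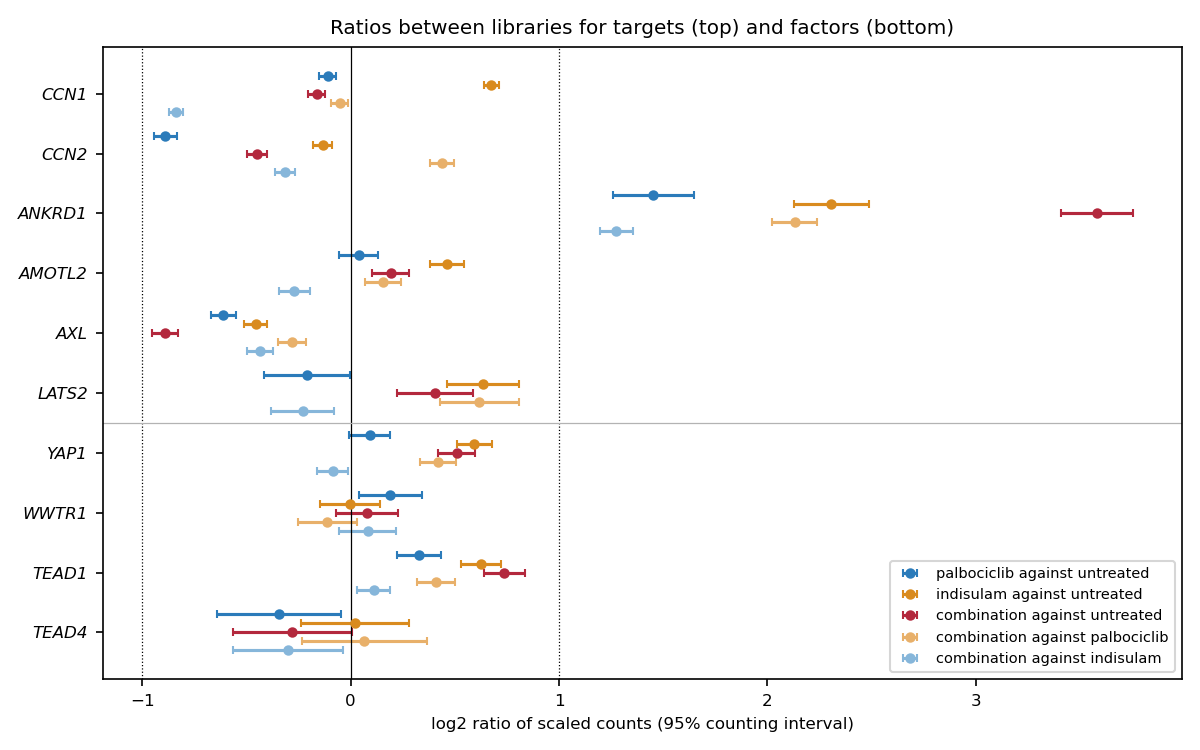
Log2 ratio of scaled counts (horizontal axis) for each of the 10 genes in 5 comparisons of libraries, with 95% counting intervals and dotted lines at 2-fold. ANKRD1 is the only gene beyond the dotted lines, from 1.28 to 3.58, and the other genes lie between -0.89 and 0.74.

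The addition of one drug to the other was compared next. For the combination against palbociclib, 1 of the 10 genes was called at 2-fold (ANKRD1), beside 16.8% of all tested genes, and LATS2 was added at 1.5-fold, beside 32.5%, a call lost under each of the 3 other scalings (log2 ratios of 0.52 to 0.57). The median was 0.28 against 0.07 for all tested genes. For the combination against indisulam, ANKRD1 was called, beside 8.07% of all tested genes, and at 1.5-fold CCN1 (lower) was added, beside 21.9%. The median was -0.25 against -0.01, and 3 of the 10 genes were above 0, beside 6973 of the 14269 tested genes. None of the 10 genes was called between indisulam and palbociclib, where 16.5% of all tested genes were. Higher with indisulam were 9 of 10, beside 7903 of the 14269 tested genes, WWTR1 being the exception at -0.19 (-0.33 to -0.05). The ratios of WWTR1, of AXL (0.15) and of TEAD4 (0.366, beside 0.368) were smaller than the spread given for their levels. No departure from additivity of the 10 genes was called, beside 7.44% of all tested genes.

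**Figure D4:**
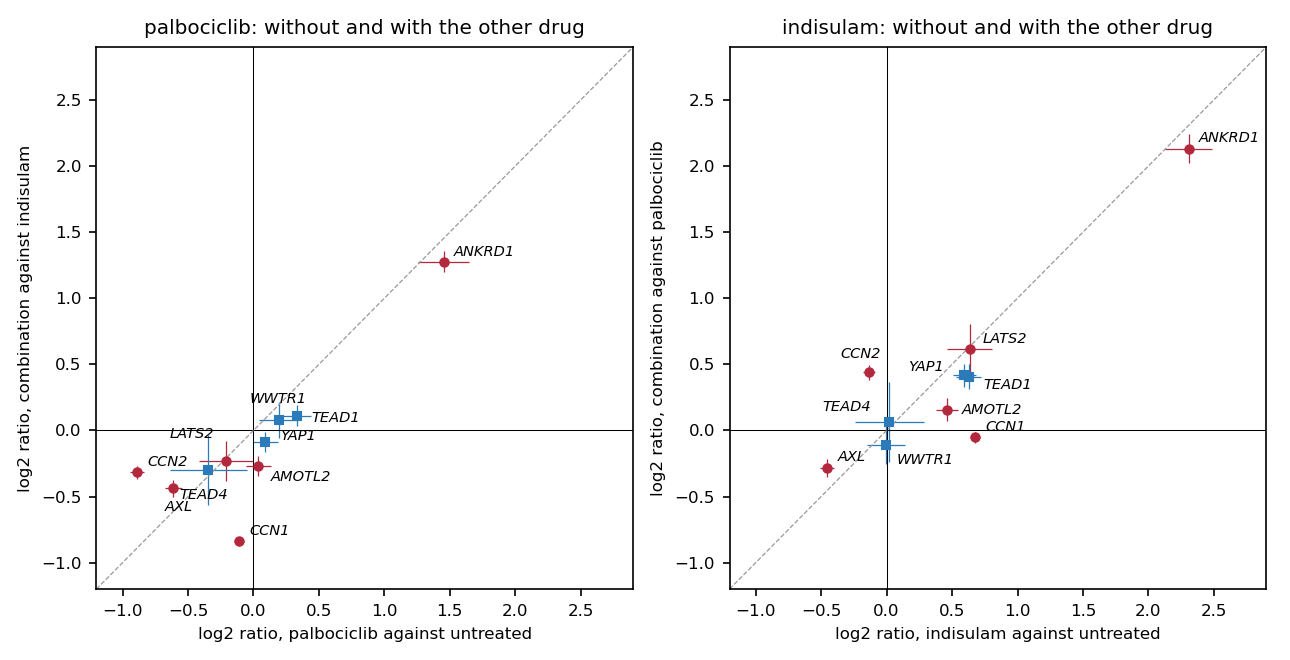
Log2 ratio for palbociclib (left) and indisulam (right) given without the other drug (horizontal axis) and on top of it (vertical axis), with 95% counting intervals. Circles are the 6 targets and squares the 4 factors; points on the dashed line are additive on the log2 scale. ANKRD1 lies near the line in both panels, whereas CCN1 lies below it and CCN2 above it.

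The remaining 16 genes of a 22-gene YAP/TAZ target score, which the 6 targets belong to, were all tested. In the combination against untreated cells, 4 of the 16 were called higher and 1 lower (31.2%, beside 23.4% of all tested genes), with a median of 0.19 against 0.05. IGFBP3, which binds insulin-like growth factors, had a log2 ratio of 2.45 (2.15 to 2.76). F3, the tissue factor that starts coagulation, had one of 1.79 (1.74 to 1.85). FJX1 was at 1.47 (1.15 to 1.78) and TGFB2, a ligand of the TGF-beta family, at 1.38 (1.28 to 1.48). ARHGEF17, a guanine nucleotide exchange factor, was at -1.52 (-1.66 to -1.37). With indisulam, 4 of the 16 were called higher (F3, IGFBP3, GADD45A and TGFB2) and none lower (beside 14.9% of all tested genes), at a median of 0.61. Under each of the 3 other scalings the count was 3, without GADD45A. With palbociclib, IGFBP3 and FJX1 were called higher (12.5%, beside 10.6%), at a median of 0.04. None of the 16 was called for the combination against indisulam (beside 8.07% of all tested genes), and for the combination against palbociclib 4 were higher (F3, GADD45A, DOCK5 and TGFB2) and ARHGEF17 lower (31.2%, beside 16.8%), with TGFB2 lost under each other scaling and F3 with TMM factors. Individual targets thus differed in direction, as the 6 direct targets did.

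Of 37 genes of the Hippo kinase cascade and its upstream regulators, 34 were tested, and MAP4K1, AMOT and CRB3 were below the filter. The share called was below that of all tested genes in each comparison with untreated cells. None was called with palbociclib (beside 10.6%). With indisulam, FAT1 and RASSF1 were called higher and MAP4K2 lower (8.82%, beside 14.9%). With the combination 4 were called higher and none lower (11.8%, beside 23.4%), at a median of 0.33. These 4 were FAT1, an atypical cadherin, at a log2 ratio of 1.46 (1.39 to 1.54), WWC1, a scaffold that binds LATS kinases, at 1.30 (1.12 to 1.48), FRMD6, a FERM domain protein, at 1.10 (1.00 to 1.19), and MAP4K5, a kinase of the family that phosphorylates LATS, at 1.07 (0.88 to 1.26). With TMM and median-of-ratios factors MAP4K5 was no longer called and MAP4K2 was called lower. Among 18 genes of STRIPAK, a phosphatase complex that acts on MST kinases, 17 were tested and only CTTNBP2NL was called with the combination (5.88%, beside 23.4%), higher at 1.15. Of the other TEAD factors and the VGLL cofactors, which compete with YAP for TEAD, 4 of 6 were tested. With indisulam, 1 of the 4 was called, VGLL3 (higher at 1.37), beside 14.9% of all tested genes. None was called with palbociclib, and none with the combination, where VGLL3 was at 1.00 (0.86 to 1.13), just under the 2-fold limit. For the combination against palbociclib, VGLL3 was called higher and TEAD2 lower (2 of 4, beside 16.8%). For indisulam against palbociclib, VGLL3 alone was called, again higher (1 of 4, beside 16.5%).

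Paralogs of the targets, the sister receptors of AXL and the ligands of this receptor family numbered 10, and 7 were tested. In the combination against untreated cells, CCN3 was called higher at a log2 ratio of 3.39 (2.99 to 3.78), GAS6 at 1.61 (1.52 to 1.70) and CCN4 at 1.19, while TYRO3, a receptor related to AXL, was called lower at -1.11 (4 of 7 genes, 57.1%, beside 23.4% of all tested genes). Under each other scaling CCN5 was also called lower. CCN3 was thus higher by a ratio similar to that of ANKRD1, whereas CCN1 and CCN2 were not called. Serum response factor and its coactivator MRTF also respond to actin and share some targets with YAP, and 21 of 22 such genes were tested. With the combination, 7 of the 21 were called higher and none lower (33.3%, beside 23.4% of all tested genes), at a median of 0.61, and 5 were called under each of the 3 other scalings, without TPM2 and PDLIM7. Those named by rule were TAGLN at 3.05 (2.92 to 3.17) and MYL9 at 1.89, both proteins of contractile cells, MRTFA, the coactivator itself, at 1.26, and ACTA2, smooth muscle actin, at 1.10. With palbociclib 4 of the 21 were called higher and none lower (19.0%, beside 10.6%). With indisulam 5 were called higher and none lower (23.8%, beside 14.9%), and 4 under each other scaling, without TPM1. Each of these 3 counts includes CNN1, which had 0, 10, 10 and 53 reads in untreated, palbociclib, indisulam and combination cells. It passed the filter only through the combination library (3.69 CPM), where it was highest, so its calls are no support for a change of the list.

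**Figure D5:**
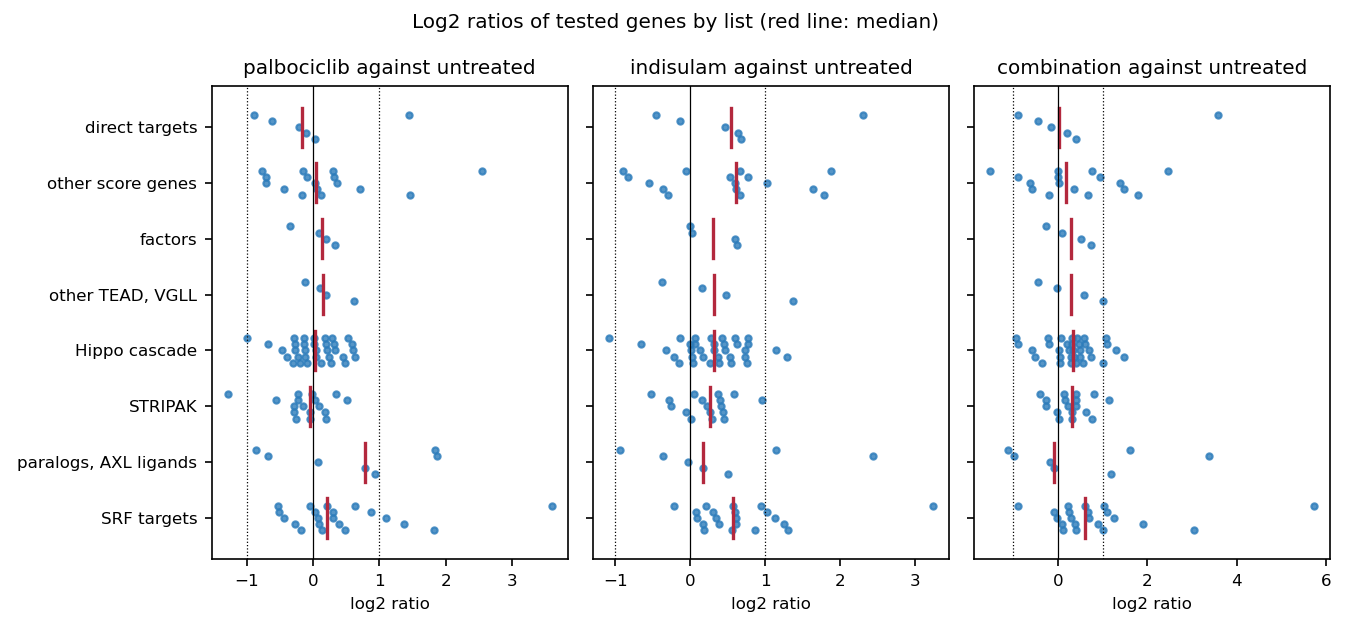
Log2 ratio to untreated cells (horizontal axis) of every tested gene in 8 gene lists, for palbociclib, indisulam and the combination. Each point is 1 gene, the red line is the median of the list and the dotted lines mark 2-fold; the highest direct target in each panel is ANKRD1, and the serum response factor list has a median of 0.61 with the combination.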

How the data were processed

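Poly(A) RNA of SUM159 cells was sequenced in 4 libraries, 1 per condition, after a stranded mRNA preparation per the labels. The labels name Trizol for RNA extraction, and the methods of the study name a column kit. The authors deposited raw read counts per Ensembl gene, and the submitters' processing notes name TopHat2 2.1, HTSeq and build GRCh38. The annotation release, the strand setting of the counting and whether technical duplicates were pooled are not given in the sources used here. Rows without a gene held 9.61% to 10.07% of the reads and were left out.

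From the deposited counts, CPM was computed by the total of gene counts, with a pseudocount of 1 on the scaled count before log2, in Python 3.11.15 with pandas 2.3.3 and scipy 1.17.1. The ratios of 6 comparisons and the departure from additivity (the combination minus the sum of the single-drug log2 ratios) have 95% Poisson intervals, and no significance test was run. The call was run on simulated counts that held counting error alone, which cannot show how it performs with variation between libraries. Exon lengths and overlaps came from GENCODE release 44. Alternatives were the scaling factors of edgeR 4.0.16 (TMM, upper quartile) in R 4.3.3, median-of-ratios factors, pseudocounts of 0.5 and 5, no filter or a filter at 5 CPM, a 1.5-fold limit and the fold alone. The members and lists were chosen with earlier results of these data known. Named were the 10 members, from each list up to 4 called genes in each direction (combination against untreated, mean of at least 5 CPM), and the 3 genes nearest to the 2 targets of widest range. Other genes were named after their values were seen.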

Additional observations from a re-analysis of the deposited data

Results flagged for a closer look

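For 2 of the 10 genes, the ratio for indisulam had opposite signs without and with palbociclib, and the counting intervals excluded 0 on both sides. CCN1 had a log2 ratio of 0.68 for indisulam against untreated and of -0.0524 for the combination against palbociclib. CCN2 had -0.13 for indisulam against untreated and 0.44 for the combination against palbociclib. With 1 library per condition the difference was not tested, and the smaller value of each pair (-0.0524 for CCN1 and -0.13 for CCN2) is below the spread of 0.28 given for genes at this level.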

How the results depend on the processing

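No paired analysis was possible because each condition had 1 library. Of the 350 values of the 70 log2 ratios and departures of the 10 genes under 5 alternatives of scaling and pseudocount, 314 lay within the main counting interval and 36 outside it, and the largest move was 0.098. No called ratio changed sign. The sign of 4 uncalled values changed: TEAD4 for indisulam against untreated (lowest -0.05) and for the combination against palbociclib (-0.03), WWTR1 for the combination against untreated (-0.01) and the departure of LATS2 (0.00). The other scalings moved the median log2 ratio of all genes by less than 0.1. With TMM factors, 3 of the 16 other score genes were called for the combination against palbociclib. With a filter at 5 CPM, which tests fewer genes, all tested genes called numbered 833 for palbociclib, 1212 for indisulam and 2104 for the combination, each against untreated, 1396 and 544 for the combination against palbociclib and indisulam, 1359 for indisulam against palbociclib and 580 for the departure. At 1.5-fold, a lower limit, these counts were 3490, 4439, 6027, 4643, 3126, 4716 and 2624 in the same order, those of the 10 genes were 3, 5, 3, 2, 2, 4 and 1, and those of the 16 other score genes were 6, 11, 10, 9, 5, 12 and 6. Of these counts of the 10 genes at 1.5-fold, that for indisulam was 2 and that for the combination against palbociclib was 1 under each of the 3 other scalings, an alternative chosen after seeing the data. That of the departure was 2 with upper-quartile factors, where CCN2 was added, and the others did not change. Depth limited TEAD4 most, at 163 to 277 reads.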
